A study of Mus musculus with 36 samples.

Results

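The genes described here encode the core of the basement membrane and its main receptor: the laminin chains Lama1, Lamb1 and Lamc1, the collagen IV chains Col4a1 and Col4a2, the nidogens Nid1 and Nid2, the matrix protein Sparc, the proteoglycan Hspg2 and the receptor Dag1. They were chosen by name, and their symbols were matched to the gene identifiers of the GRCm38 annotation, which gave 10 genes of the 55401 in the count tables. RNA-seq was measured in 36 libraries of mouse embryonic stem cells (ESCs) and of the epiblast-like cells (EpiLCs) made from them, with 3 libraries in each of 12 groups. All cells were of C57BL/6 strain. EpiLCs stand for the epiblast after implantation, and were made on fibronectin in NDiff227 medium over 2 days with activin A at 20 ng/ml, bFGF at 12 ng/ml and 1% KSR. ESCs grew on gelatin with serum, LIF and the GSK and MEK inhibitors of 2i medium. J2KO cells lack JARID2, the PRC2.2 subunit, and were compared with J2WT cells. QKO cells lack the Polycomb-like proteins PCL1-3 (PHF1, MTF2 and PHF19, the PRC2.1 subunits) together with JARID2, TKO cells lack PCL1-3 alone, and both were compared with PclWT cells. These lines were measured as EpiLCs and as ESCs. Pcgf2/4 KO cells lack a pair of PRC1 subunits and were compared with WT cells as EpiLCs. The labels give 1 line per genotype and do not state if replicates were grown apart, and each p-value therefore reflects only how far libraries scatter, which may be technical.

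Counts in genes ranged from 15924615 to 18026492 in the 12 libraries of the J2 lines, from 6784578 to 11253158 in the 18 libraries of the Pcl lines and from 10403211 to 11146921 in the 6 libraries of the Pcgf set. Levels are CPM, read counts scaled to a common library total of counts in genes and by TMM factors over all 36 libraries, and RPKM divides them by the length of the gene's exons. Every gene of the set was counted in every library, at 32 to 20063 reads. Of the targeted genes, Mtf2 was at 34.6 to 48.8 CPM in TKO and QKO libraries against 198 to 422 CPM in PclWT libraries, and Phf1 was at 0 to 0.762 CPM against 6.20 to 9.84 CPM. Phf19 was low throughout, at 0.109 to 2.85 CPM in TKO and QKO libraries against 1.50 to 3.40 CPM in PclWT libraries. Jarid2 reads, at 410 to 511 CPM in J2KO against 443 to 774 CPM in J2WT, and those of Pcgf2 and Bmi1 (Pcgf4) do not check the label where the deleted part of the gene is not given. The stage labels held, since 8 of 8 naive pluripotency genes were over 2-fold lower in EpiLCs in each of the 5 lines, and 4 to 7 genes of a list of 7 formative genes were over 2-fold higher. Of all genes tested, 6.55% to 15% were called lower and 8.68% to 15.2% higher in these lines. The formative genes rose less in PclWT, to a sum of 1042 to 1213 CPM in EpiLCs against 343 to 367 CPM in ESCs. In J2WT they summed to 4059 to 4146 CPM in EpiLCs against 318 to 330 CPM in ESCs. PclWT EpiLC replicate 1 stood apart: it differed from the other PclWT EpiLC libraries by over 2-fold in 1756 and 1978 of 13365 genes, against 41 to 245 genes within other pairs of replicates. The genes of the set were at 0.279 to 0.609 times the mean of the other replicates there, except Sparc at 1.02 times. Most fold changes of the set that use this library are therefore given with and without it, as are many other values that it moves. Sparc and Hspg2 in QKO and TKO EpiLCs and the medians over the set are given one way only. QKO EpiLC replicate 2 also stood apart in counting noise, with a mean chi-square per gene of 29.2 and 34.4 against the other QKO EpiLC libraries, which gave 2.00 between them, and 30.2% of its reads were in rows that name no gene, against 23.2% and 23.6%. It differed from them by over 2-fold in 156 genes each, beside 143 genes for the other pair.

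Basement membranes are thin sheets of matrix on which epithelia rest. Laminin is a trimer of an alpha, a beta and a gamma chain that polymerises at the cell surface, where integrins and dystroglycan hold it, and collagen IV forms a second network that nidogens and perlecan link to laminin. In the mouse blastocyst these proteins are made above all by the primitive endoderm and its parietal descendants, and after implantation the epiblast polarises on the basement membrane that separates it from visceral endoderm.

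Collagen IV is the one pair of the set whose genes share a start region, so their sequence is shown first. Col4a1 (chr8:11198423-11312826, minus strand) and Col4a2 (chr8:11312805-11449287, plus strand) lie head to head, and their annotated ends overlap by 22 bp. In the 78 bases printed here, from RefSeq on GRCm38.p6 at chr8:11312777-11312854 on the plus strand, the capitals mark the 22 bases that lie between the start of Col4a2 (11312805) and that of Col4a1 (11312826).
Col4a1 and Col4a2 shared window: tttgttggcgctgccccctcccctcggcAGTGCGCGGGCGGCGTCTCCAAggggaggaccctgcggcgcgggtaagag
The upstream sequences of Lamb1 and Nid1 are shown because these genes moved furthest in opposite directions between the stages of J2WT. Each is the 250 bases before the RefSeq start, at chr12:31265043-31265292 for Lamb1 and chr13:13437352-13437601 for Nid1, both on the plus strand of GRCm38.p6, and the capitals mark the letters GGGCGG (GC box) and CCAAT on either strand.
Lamb1 upstream window: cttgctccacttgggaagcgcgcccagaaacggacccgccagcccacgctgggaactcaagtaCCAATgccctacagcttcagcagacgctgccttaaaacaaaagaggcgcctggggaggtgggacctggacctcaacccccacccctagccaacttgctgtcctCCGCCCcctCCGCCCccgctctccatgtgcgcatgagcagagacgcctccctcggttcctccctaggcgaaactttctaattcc
Nid1 upstream window: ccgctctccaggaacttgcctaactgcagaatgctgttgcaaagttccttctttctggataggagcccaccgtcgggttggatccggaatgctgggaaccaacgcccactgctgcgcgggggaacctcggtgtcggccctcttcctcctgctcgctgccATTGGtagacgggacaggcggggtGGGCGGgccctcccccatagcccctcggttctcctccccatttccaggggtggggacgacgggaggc
Windows from 250 bases before to 50 after a start were at hand for 7 of the 10 genes, and none was at hand for Lama1, Lamc1 and Nid2. The letters GGGCGG, which 35.7% of 32851 such windows hold on either strand, occurred in the windows of all 7 genes but Sparc. They occurred 5 times for Hspg2, 3 times for Col4a2 and 3 and 4 times in the windows of Dag1. Lamb1 held them 2 times, and Col4a1 and Nid1 held them 1 time each. CCAAT, held by 37.4% of windows, occurred in the windows of Col4a1, Col4a2, Dag1, Lamb1 and Nid1. Neither TATAAA (13.6% of windows) nor AGATAA (11.2%) was found in any of the 7.

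**Figure D1:**
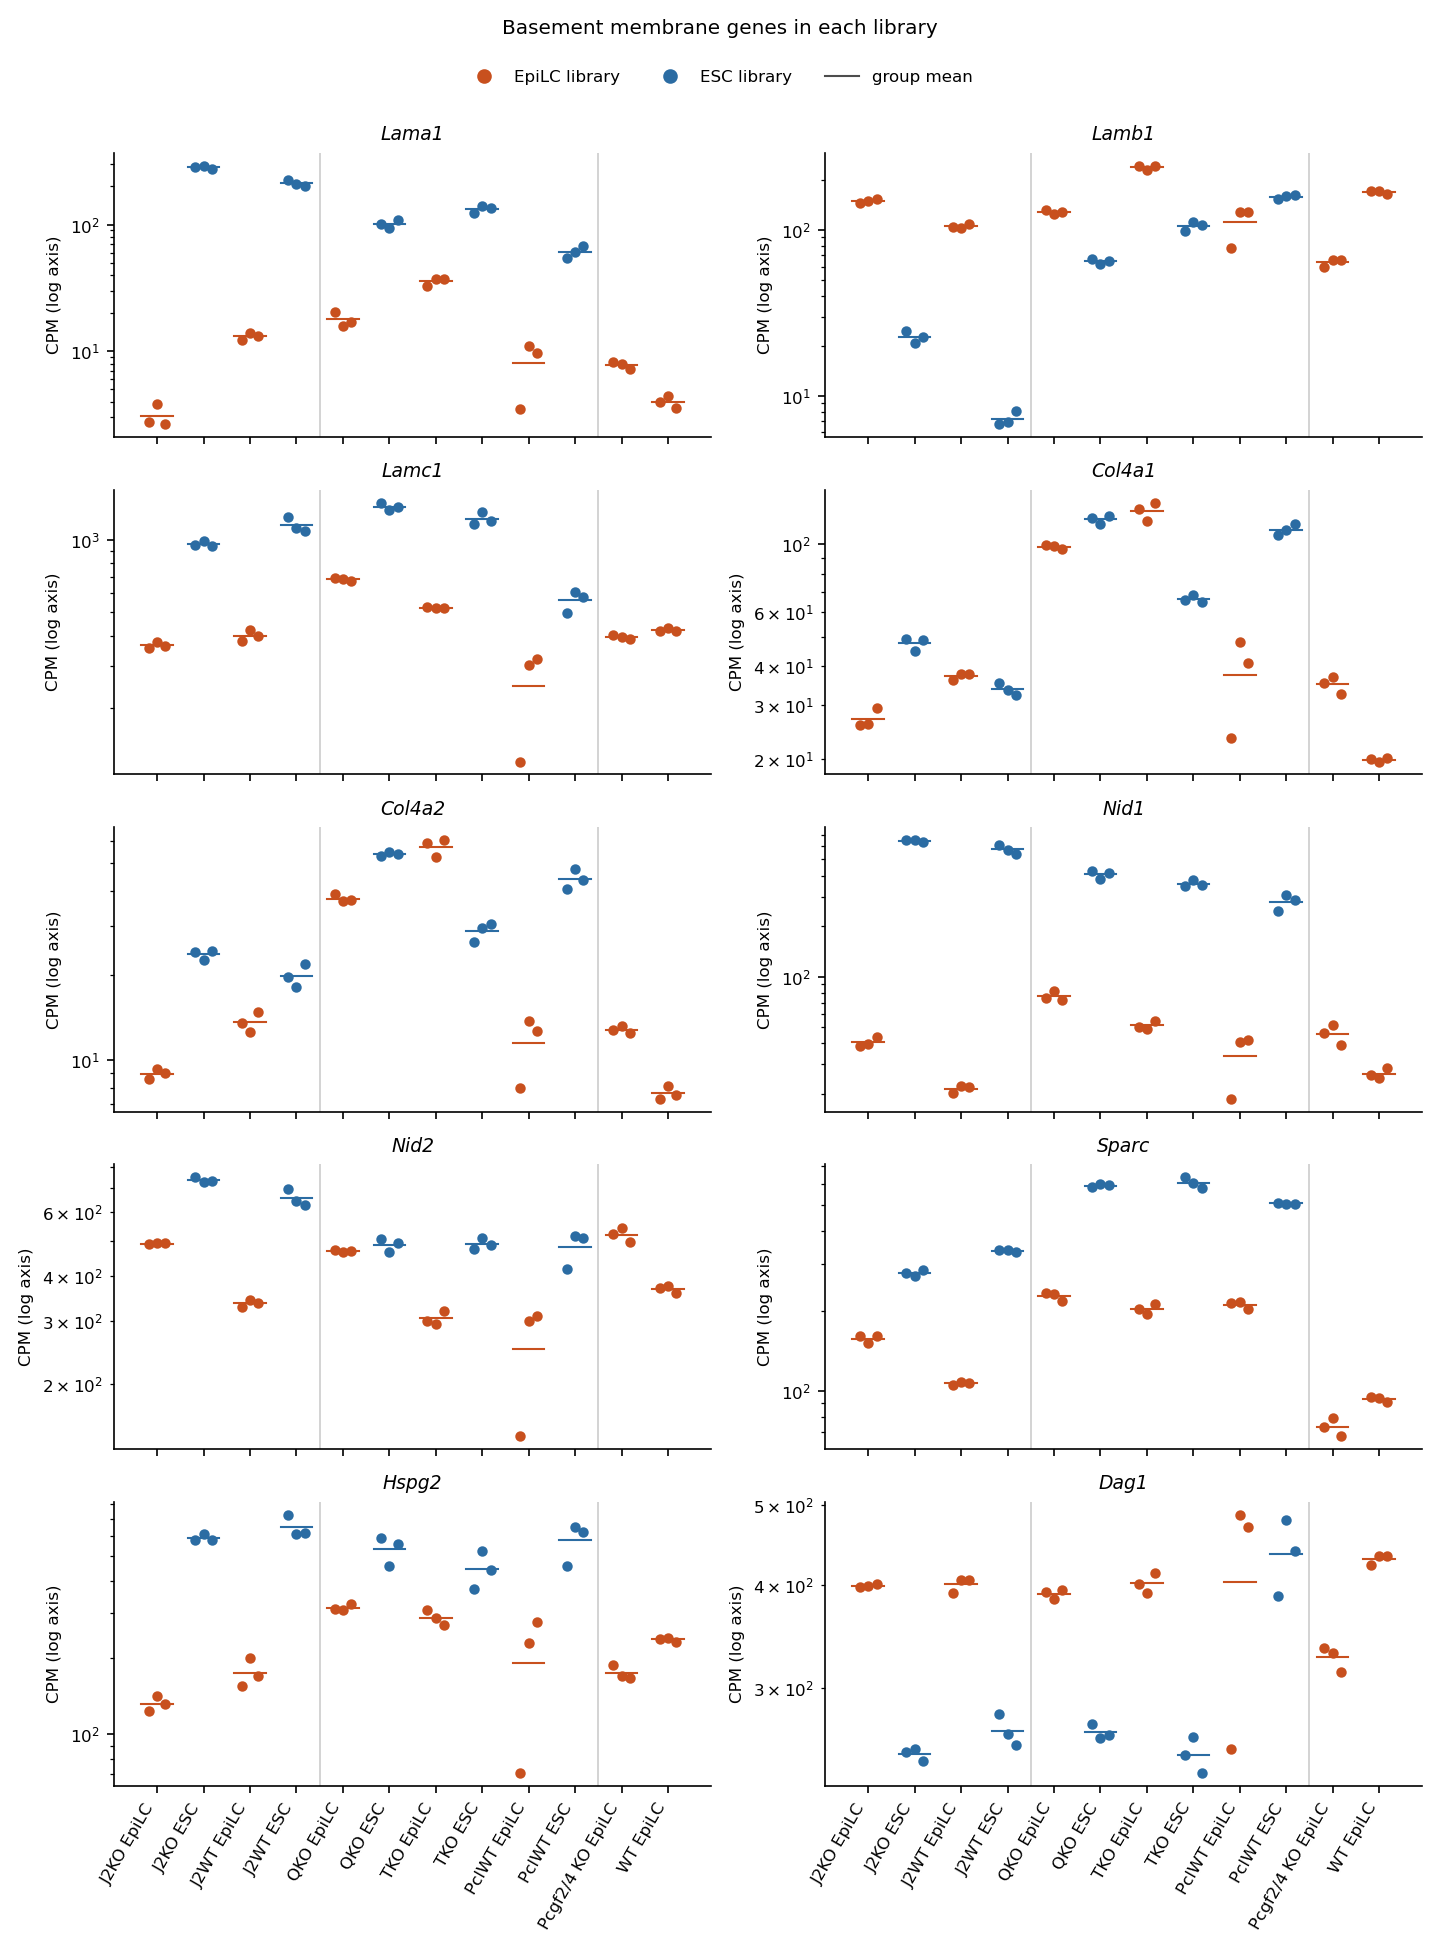
Level of each of the 10 basement membrane genes in CPM on a log axis, with 1 point per library and a bar at the group mean, for each of the 12 groups. Lama1 and Nid1 were lower in EpiLCs than in ESCs of each of the 5 lines, whereas Lamb1 ran from 7.23 CPM in J2WT ESCs to 238 CPM in TKO EpiLCs.

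Per length, the transcripts of the set were far from equal. By group means, Lamc1 ran from 29.9 to 166 RPKM, Nid2 from 48.5 to 143 RPKM and Sparc from 19.4 to 160 RPKM. Dag1 spanned 39.1 to 68.6 RPKM and Hspg2 9.22 to 45.6 RPKM. Lama1 (0.318 to 29.3 RPKM), Lamb1 (0.729 to 24.0 RPKM), Col4a1 (2.67 to 17.1 RPKM) and Col4a2 (1.16 to 8.65 RPKM) were the low members, and Lamc1 and Nid2 exceeded both collagen IV chains per length in every group. Nid1 ran from 3.09 to 93 RPKM and lay below Col4a1 in EpiLCs of J2WT, PclWT, QKO and TKO, and in TKO EpiLCs below Col4a2 too (7.38 against 8.65 RPKM). In PclWT EpiLCs without replicate 1, Lamc1 was at 37.7, Nid2 at 58.9, Hspg2 at 17.6 and Dag1 at 75.2 RPKM. Group means differed most between groups for Lama1, by 92.2 times, and least for Dag1, by 1.75 times. Lines of different sets were not compared by a test, except where stated, since line, set and depth cannot be told apart between them.

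The first question is how the set changed when ESCs became EpiLCs, and it was asked in each line on its own. Lama1, Lamc1, Nid1, Sparc and Hspg2 were lower in EpiLCs of all 5 lines, by edgeR's test at an adjusted p under 0.05. Lamb1 went the other way in J2WT, J2KO, TKO and QKO, and Dag1 was modestly higher in the same 4 lines. The collagen IV genes had no common direction. In bulk libraries fewer cells of a type and less RNA per cell cannot be told apart. In what follows a gene is called changed when its adjusted p is under 0.05 and its fold change over 2 (log2 over 1). Log2 fold changes come from edgeR's quasi-likelihood fit of the libraries compared and carry their standard error (SE).

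Lama1 (chr17:67697259-67822647) encodes the alpha 1 chain, the alpha chain of the earliest embryonic laminin. It was at 2.76, 3.83 and 2.65 CPM in J2KO EpiLCs, against 285, 292 and 276 CPM in J2KO ESCs. In J2WT it was at 12.4, 14.0 and 13.1 CPM in EpiLCs, against 226, 209.5 and 202 CPM in ESCs. No library of one stage overlapped the other, and the change was the steepest of the set in J2KO, where the 3 EpiLC libraries held only 41 to 63 reads each. The log2 fold change was -6.51 ± 0.06 in J2KO (adjusted p = 2.52e-43) and -4.00 ± 0.06 in J2WT (adjusted p = 3.56e-26, edgeR). In the Pcl family the fall was smaller, at -2.51 ± 0.07 in QKO, -1.88 ± 0.06 in TKO and -2.94 ± 0.37 in PclWT, or -2.56 ± 0.12 in PclWT without EpiLC replicate 1. Lama1 averaged 17.8 ± 2.35 CPM in QKO EpiLCs against 101 ± 7.36 CPM in QKO ESCs, and 35.9 ± 2.7 CPM in TKO EpiLCs against 133 ± 8.45 CPM in TKO ESCs (SD, n = 3 each). All ESC groups thus stood above all EpiLC groups, from 284 CPM in J2KO ESCs down to 60.9 CPM in PclWT ESCs, followed by 35.9 CPM in TKO EpiLCs. Of the 11 pairs of neighbours in that order only 2 overlapped, PclWT EpiLC with Pcgf2/4 KO EpiLC and WT EpiLC with J2KO EpiLC.

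Lamb1 (chr12:31265234-31329644) encodes the beta 1 chain, the partner of alpha 1 and gamma 1. It was at 104, 103 and 108 CPM in J2WT EpiLCs, against 6.72, 6.90 and 8.06 CPM in J2WT ESCs. In J2KO it was at 145, 149 and 154 CPM in EpiLCs, against 24.6, 20.6 and 22.7 CPM in ESCs. Lamb1 was therefore scarce in the ESCs of both J2 lines, and all of their EpiLC libraries lay above all of their ESC libraries. Its log2 fold change was 3.87 ± 0.07 in J2WT (adjusted p = 6.31e-25) and 2.73 ± 0.05 in J2KO (adjusted p = 3.66e-35, edgeR). It was smaller in TKO, at 1.20 ± 0.05, and in QKO, at 0.98 ± 0.04, which is just under 2-fold. TKO EpiLCs held 243, 230.2 and 241 CPM, the highest of any group, against 97.8, 111 and 107 CPM in TKO ESCs. PclWT alone did not share the direction, with 78.1, 129 and 128 CPM in EpiLCs against 153, 160.3 and 162 CPM in ESCs. There the log2 fold change was -0.53 ± 0.20 (adjusted p = 0.0861), -0.30 ± 0.06 without EpiLC replicate 1 (adjusted p = 0.000258), and -0.56 with the replicate number as a block (adjusted p = 0.0433).

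Lamc1 (chr1:153218922-153332786) encodes gamma 1, the gamma chain of most laminins, and was the most abundant chain of the set. It was at 379, 423 and 398 CPM in J2WT EpiLCs, against 1249, 1126 and 1088 CPM in J2WT ESCs. The EpiLC libraries lay below all ESC libraries, and the same held within the other 4 lines. The log2 fold change was -1.52 ± 0.04 in J2WT, -1.39 ± 0.03 in J2KO, -1.21 ± 0.05 in TKO and -1.01 ± 0.04 in QKO (highest adjusted p = 2.38e-13, edgeR). In QKO it lay at the 2-fold limit and was under it without QKO ESC replicate 1 (-0.98), EpiLC replicate 2 (-0.99) or EpiLC replicate 1. In PclWT it was -1.21 ± 0.35 (adjusted p = 0.0397), but -0.85 ± 0.07 without EpiLC replicate 1 (adjusted p = 5.44e-08). With any PclWT ESC library or EpiLC replicate 2 left out, its adjusted p in PclWT was 0.0634 to 0.126. The highest group mean, 1377 CPM, was in QKO ESCs and the lowest, 248 CPM, in PclWT EpiLCs, or 312 CPM there without replicate 1.

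Col4a1 and Col4a2 encode the alpha 1 and alpha 2 chains, which assemble as a trimer of alpha 1, alpha 1 and alpha 2, the classical collagen IV of embryonic membranes. Their stage change depended on the line. Col4a1 was at 36.3, 37.8 and 37.9 CPM in J2WT EpiLCs against 35.2, 33.6 and 32.2 CPM in J2WT ESCs. Col4a2 was at 13.6, 12.6 and 14.8 CPM in J2WT EpiLCs against 19.8, 18.2 and 22.0 CPM in J2WT ESCs. The stages of J2WT did not overlap for either gene, but neither changed by 2-fold, at log2 fold changes of 0.16 ± 0.06 for Col4a1 (adjusted p = 0.0127) and -0.54 ± 0.08 for Col4a2. Col4a1 did not pass without J2WT ESC replicate 3 (0.12, adjusted p = 0.0589) or J2WT EpiLC replicate 3 (0.14, adjusted p = 0.0534), and without EpiLC replicate 2 its adjusted p lay at the limit.

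In the Pcl family the collagen IV genes diverged. In PclWT, Col4a1 was at 23.4, 48.0 and 41.0 CPM in EpiLCs against 107, 111 and 116 CPM in ESCs, and Col4a2 at 7.98, 13.8 and 12.7 CPM in EpiLCs against 40.6, 47.9 and 43.5 CPM in ESCs. Both were thus lower in every PclWT EpiLC library, with log2 fold changes of -1.59 ± 0.25 and -1.96 ± 0.21, or -1.32 ± 0.08 and -1.73 ± 0.10 without EpiLC replicate 1. In TKO the direction was the opposite. Col4a1 was at 129.7, 118 and 136 CPM in TKO EpiLCs against 65.9, 68.2 and 64.8 CPM in TKO ESCs, and Col4a2 at 58.8, 52.6 and 60.4 CPM in TKO EpiLCs against 26.2, 29.4 and 30.4 CPM in TKO ESCs. Every TKO EpiLC library lay above every TKO ESC library, at log2 fold changes of 0.97 ± 0.05 (adjusted p = 2.77e-11) and 1.02 ± 0.07 (adjusted p = 1.11e-09, edgeR). The Col4a2 change stood at the 2-fold limit and was 0.96 to 1.06 when 1 library at a time was left out, under 1 without TKO ESC replicate 1, TKO EpiLC replicate 1 (0.99) or TKO EpiLC replicate 3 (0.98). QKO lay between, with -0.30 ± 0.04 for Col4a1 and -0.53 ± 0.06 for Col4a2, and J2KO gave -0.81 ± 0.06 and -1.39 ± 0.08. TKO EpiLCs had the highest and WT EpiLCs the lowest mean of both genes, at 128 against 19.9 CPM for Col4a1 and 57.3 against 7.66 CPM for Col4a2.

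Nidogens bridge laminin and collagen IV, and the 2 genes differed in how far they moved. Nid1 (chr13:13437551-13512269) was at 20.4, 22.3 and 21.8 CPM in J2WT EpiLCs, against 613, 573 and 542 CPM in J2WT ESCs. It was the steepest fall of J2WT, at a log2 fold change of -4.73 ± 0.05 (adjusted p = 2.26e-28, edgeR). Nid1 also fell in the other lines, at log2 fold changes of -3.98 ± 0.04 in J2KO, -2.42 ± 0.06 in QKO, -2.79 ± 0.05 in TKO and -3.08 ± 0.31 in PclWT, or -2.76 ± 0.09 without PclWT EpiLC replicate 1. Nid2 (chr14:19751265-19811787) was at 327, 344 and 336 CPM in J2WT EpiLCs, against 698, 644 and 631 CPM in J2WT ESCs. No J2WT libraries overlapped, at a log2 fold change of -0.96 ± 0.04, and Nid2 stayed under 2-fold in every line with all libraries and no block, with -0.58 ± 0.03 in J2KO and -0.67 ± 0.05 in TKO. In QKO it was at 471, 466 and 468 CPM in EpiLCs against 506, 465 and 495 CPM in ESCs, which overlapped (log2 fold change -0.07 ± 0.05, adjusted p = 0.202). In PclWT the change was -0.97 ± 0.29 (adjusted p = 0.0436) and -0.66 ± 0.08 without EpiLC replicate 1, or -1.04 with the replicate number as a block (adjusted p = 0.00859, edgeR), past 2-fold. The adjusted p was 0.0522 to 0.147 in the unblocked fit without any other single library. Of the exon bases of Nid2, 8.45% overlap an antisense gene, Rtraf, and the libraries do not mark strand.

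Sparc (chr11:55394500-55423183) encodes a collagen-binding matrix protein abundant in parietal endoderm. It was at 105, 108 and 107 CPM in J2WT EpiLCs, against 338, 337 and 332 CPM in J2WT ESCs. It fell in all 5 lines with no overlap between stages, at log2 fold changes of -1.64 ± 0.04 in J2WT, -1.55 ± 0.05 in TKO, -1.38 ± 0.05 in QKO and -0.81 ± 0.03 in J2KO. In PclWT it was at 214, 215 and 203 CPM in EpiLCs against 506, 505 and 505 CPM in ESCs. Here EpiLC replicate 1 did not stand apart, and the log2 fold change was -1.29 ± 0.09 with it and -1.28 ± 0.06 without it.

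Hspg2 (chr4:137468769-137570630) encodes perlecan, the heparan sulfate proteoglycan of basement membranes, and has the longest exon sequence of the set at 14307 bp. It was at 123, 141 and 131 CPM in J2KO EpiLCs against 581, 611 and 579 CPM in J2KO ESCs, and at 154, 199 and 170.0 CPM in J2WT EpiLCs against 728, 614 and 615 CPM in J2WT ESCs. The stages did not overlap, and the log2 fold change was -2.15 ± 0.04 in J2KO and -1.89 ± 0.07 in J2WT. The fall was under 2-fold in TKO (-0.61 ± 0.09) and QKO (-0.77 ± 0.06). In PclWT the value was -1.62 ± 0.46 (adjusted p = 0.0379), and -1.20 ± 0.11 without EpiLC replicate 1, in which Hspg2 held 70.2 CPM beside 228 and 275 CPM in the other replicates. The PclWT change did not pass without any one ESC library or EpiLC replicate 2 (adjusted p = 0.0757 to 0.119).

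Dag1 (chr9:108204634-108263958) encodes dystroglycan, the laminin receptor whose sugar chains bind laminin. It was at 391, 405 and 406 CPM in J2WT EpiLCs, against 278, 264 and 256 CPM in J2WT ESCs. The stages did not overlap in J2WT, J2KO, TKO or QKO, and the log2 fold change was 0.60 ± 0.04, 0.69 ± 0.03, 0.71 ± 0.05 and 0.56 ± 0.05 in these lines, under 2-fold in each. In PclWT the stages overlapped (-0.14 ± 0.25, adjusted p = 0.728), and the sign was positive without EpiLC replicate 1 (0.13 ± 0.07, adjusted p = 0.109). Dag1 was the most even gene of the set, and 7 of the 11 pairs of neighbouring group means overlapped in their libraries.

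**Figure D2:**
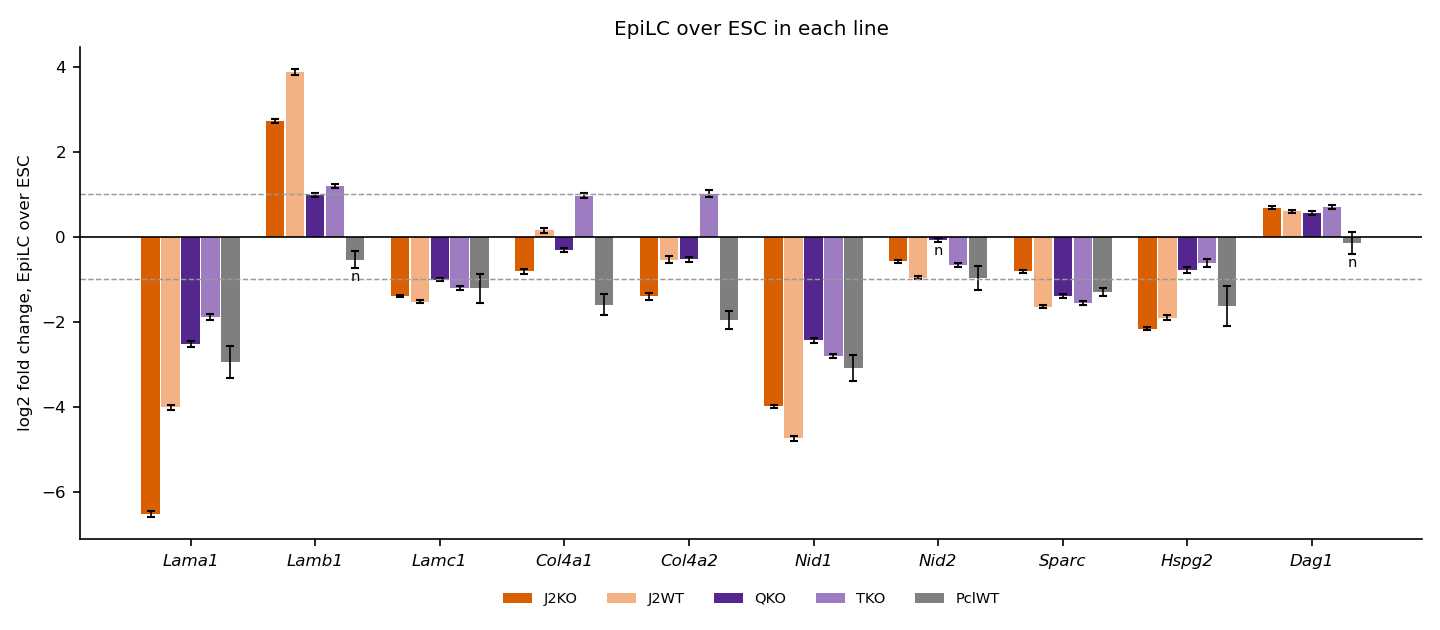
Log2 fold change of each gene in EpiLCs over ESCs for the 5 lines measured at both stages, as bars with 1 SE, where dashed lines mark a 2-fold change and n a change that did not pass an adjusted p of 0.05. Lama1 and Nid1 were lower in every line, from -1.88 to -6.51 for Lama1, and Col4a1 and Col4a2 were higher by about 2-fold in TKO only, with 0.16 for Col4a1 in J2WT.

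Counted by the 2-fold call, 1 gene was higher and 5 were lower in J2WT EpiLCs, where 15.2% of 13877 genes tested were called higher and 15% lower. In J2KO 1 was higher and 5 lower, against 15% and 12.4% of genes tested. In TKO 2 were higher and 4 lower, against 13.8% and 8.74%. In QKO none was higher and 4 were lower, against 11.9% and 7.17%. In PclWT none was higher and 7 were lower, against 8.68% and 6.55%, and 6 were lower without EpiLC replicate 1. The median log2 fold change of the 10 genes was -1.24 in J2WT, -1.10 in J2KO, -1.44 in PclWT, -0.64 in TKO and -0.65 in QKO, while that of all genes tested lay between -0.03 and -0.01. The PclWT median uses EpiLC replicate 1, in which most of the set was low, and is not given without it.

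The WT lines were set against each other by a test of the difference between their stage changes, PclWT minus J2WT, in which 21.5% of genes tested were called. Lamb1 differed by -4.38 ± 0.24 (adjusted p = 1.85e-07, edgeR), Col4a1 by -1.73 ± 0.27, Col4a2 by -1.41 ± 0.23 and Nid1 by 1.67 ± 0.32, and these held without PclWT EpiLC replicate 1, at -4.17, -1.47, -1.19 and 1.97. Lama1 differed by 1.08 ± 0.36 (adjusted p = 0.0303) and by 1.45 without that library. The Lama1 difference passed without PclWT ESC replicate 3, and its adjusted p was 0.0516 to 0.0931 when one of the 10 other libraries was left out. Line, set and depth cannot be told apart here.

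The next question is what loss of JARID2 alone did. In EpiLCs the main change of the set was in Lama1, which was at 2.76, 3.83 and 2.65 CPM in J2KO against 12.4, 14.0 and 13.1 CPM in J2WT. All J2KO libraries lay below all J2WT libraries, at a log2 fold change of -2.07 ± 0.13 (adjusted p = 4.49e-14, edgeR). It was the 1 gene of the set called lower, where 2.62% of genes tested were called lower, and none was called higher (6.23% of genes). Nid1 was higher in J2KO EpiLCs, at 38.7, 39.8 and 43.7 CPM against 20.4, 22.3 and 21.8 CPM in J2WT (0.94 ± 0.06). Lamb1 (0.53 ± 0.03), Nid2 (0.57 ± 0.03) and Sparc (0.58 ± 0.03) were higher as well, Col4a1 (-0.44 ± 0.06), Col4a2 (-0.59 ± 0.09), Hspg2 (-0.38 ± 0.06) and Lamc1 (-0.11 ± 0.03) were lower, and Dag1 was at 0.02 ± 0.03 (adjusted p = 0.64). The Lamc1 change did not pass without J2WT EpiLC replicate 2 (-0.07, adjusted p = 0.0865).

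In ESCs the one 2-fold change in J2KO was Lamb1. It was at 24.6, 20.6 and 22.7 CPM in J2KO ESCs against 6.72, 6.90 and 8.06 CPM in J2WT ESCs, without overlap, at a log2 fold change of 1.66 ± 0.09 (adjusted p = 2.66e-12, edgeR). It was the 1 gene called higher, where 7.01% of genes tested were, and none was called lower (6.34%). Lama1 was higher in J2KO ESCs by 0.43 ± 0.04, the reverse of its direction in EpiLCs, and the difference between the stages was -2.52 ± 0.13 (adjusted p = 2.02e-16). Col4a1 was higher by 0.51 ± 0.05 and Col4a2 by 0.26 ± 0.07. The effects on both collagen IV genes also differed between EpiLCs and ESCs, by -0.98 ± 0.08 and -0.87 ± 0.12. For Lamb1 the difference was -1.15 ± 0.10, with the larger change in ESCs. Of all genes tested, 11.3% were called in this test of the difference. Other changes in J2KO ESCs were between -0.27 and 0.18 on the log2 scale, and of them Hspg2 and Dag1 no longer passed with J2WT ESC replicate 1 left out (adjusted p = 0.0853 and 0.105) or J2KO ESC replicate 3 (0.0514 and 0.0963). Dag1 also did not pass without J2WT ESC replicate 2 or J2KO ESC replicate 1 (0.0792 and 0.0562).

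The third question concerned the Polycomb-like proteins. QKO and TKO were each compared with the same PclWT libraries, so their values stand side by side and are not independent. In ESCs the laminin chains went in different directions. Lamc1 was at 1429, 1329 and 1372 CPM in QKO and 1170, 1305 and 1202 CPM in TKO, against 496, 608 and 582 CPM in PclWT. Every mutant library was above every PclWT library, at log2 fold changes of 1.30 ± 0.06 in QKO and 1.10 ± 0.07 in TKO (adjusted p = 1.29e-11 and 4.66e-11, edgeR). Lamb1 was at 66.8, 62.0 and 65.1 CPM in QKO and 97.8, 111 and 107 CPM in TKO, against 153, 160.3 and 162 CPM in PclWT. It fell without overlap, by 1.28 ± 0.05 in QKO and by 0.61 ± 0.06 in TKO on the log2 scale. Lama1 was higher, by 0.74 ± 0.07 in QKO and 1.11 ± 0.07 in TKO.

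In the same ESC comparisons, Col4a1 and Col4a2 were lower in TKO (-0.77 ± 0.06 and -0.65 ± 0.08) and were not lower in QKO (0.12 ± 0.05 and 0.30 ± 0.07). The QKO value of Col4a1 (adjusted p = 0.0452) did not pass when PclWT ESC replicate 1 or 2 or QKO ESC replicate 1 or 3 was left out, at adjusted p = 0.0792 to 0.187. Dag1 fell, by 0.71 ± 0.06 in QKO and by 0.84 ± 0.07 in TKO, to 271, 261 and 262 CPM in QKO and 249, 261 and 236 CPM in TKO, against 387, 480.1 and 440.0 CPM in PclWT. Nid1 was higher, by 0.54 ± 0.07 and 0.33 ± 0.07, and Sparc by 0.23 ± 0.04 and 0.23 ± 0.05 in QKO and TKO. Nid2 overlapped in both comparisons (adjusted p = 0.74 in QKO and 0.996 in TKO). Hspg2 overlapped too, with -0.10 ± 0.10 in QKO (adjusted p = 0.4, or -0.24 with adjusted p = 0.00122 without PclWT ESC replicate 1) and -0.40 ± 0.11 in TKO (adjusted p = 0.00347). In QKO ESCs 1 gene was called higher and 1 lower, where 6.16% and 7.66% of genes tested were. In TKO ESCs 2 were called higher and none lower, where 6.64% and 7.09% were.

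**Figure D3:**
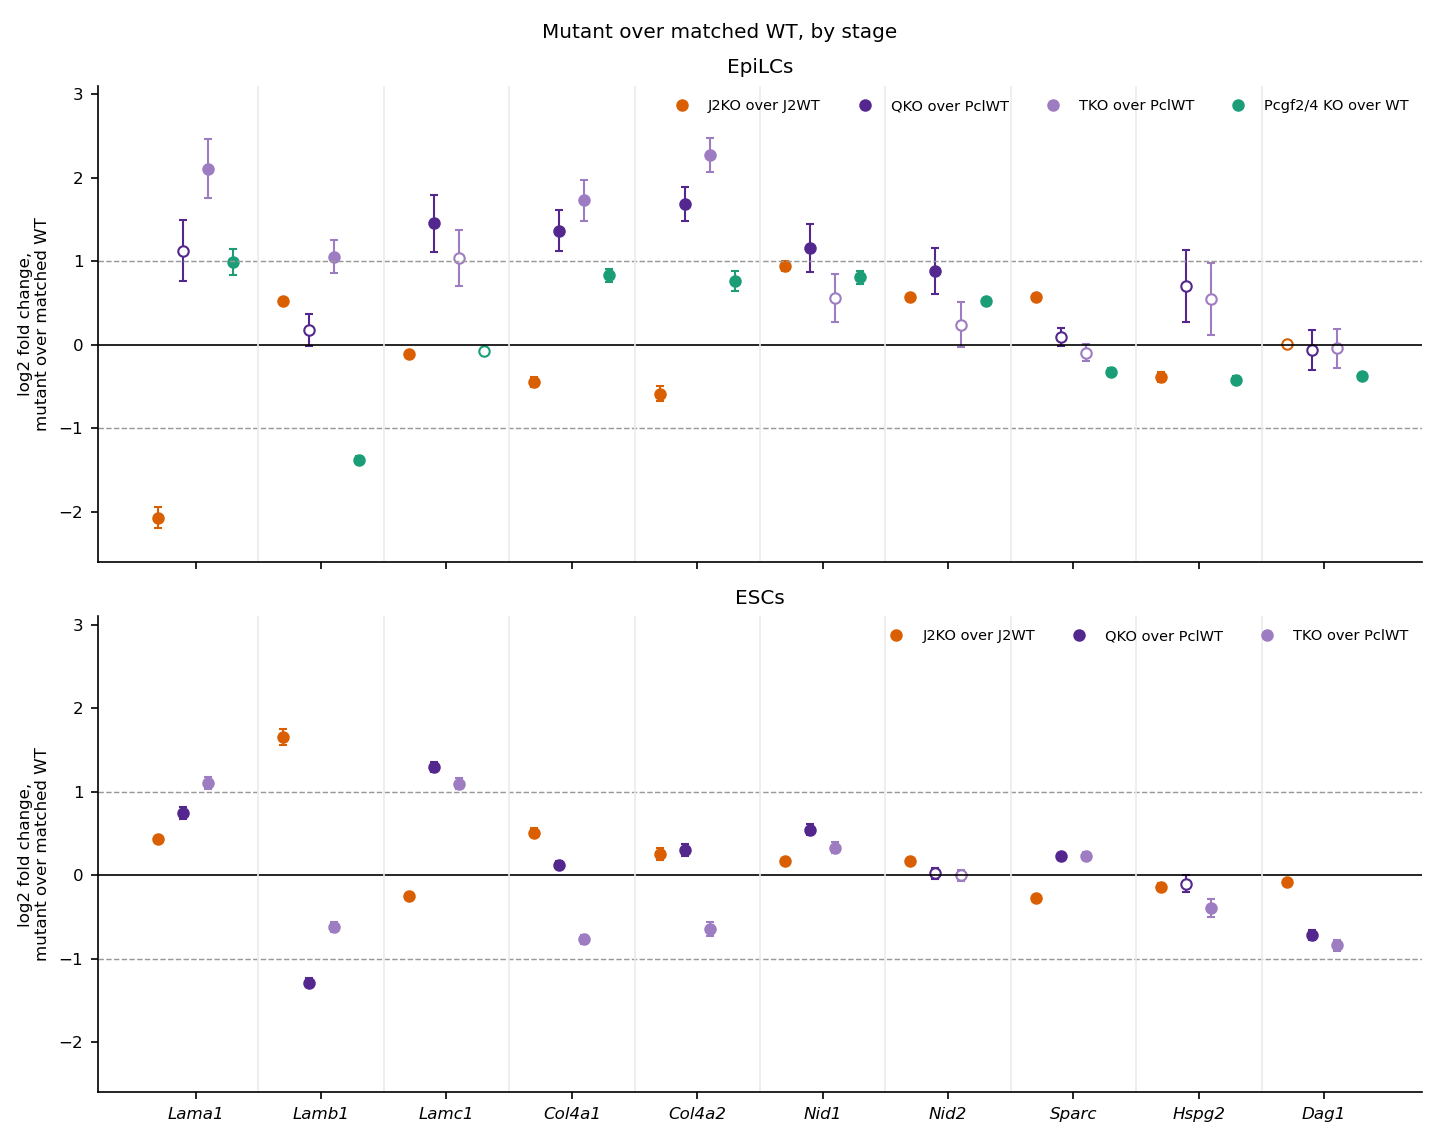
Log2 fold change of each gene in QKO and TKO over PclWT, in J2KO over J2WT and in Pcgf2/4 KO over WT, in EpiLCs and in ESCs, with bars of 1 SE and open circles where the adjusted p was not under 0.05. In EpiLCs Col4a2 was at 2.27 in TKO and 1.69 in QKO, and in ESCs at -0.65 and 0.30.

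In EpiLCs, the collagen IV genes were the clearest part of the set to differ in the Pcl family. Col4a1 was at 99.3, 98 and 95.9 CPM in QKO and 129.7, 118 and 136 CPM in TKO, against 23.4, 48.0 and 41.0 CPM in PclWT. Col4a2 was at 38.8, 36.6 and 37.0 CPM in QKO and 58.8, 52.6 and 60.4 CPM in TKO, against 7.98, 13.8 and 12.7 CPM in PclWT. All mutant libraries were above all PclWT libraries for both genes, also with PclWT replicate 1 set aside. The log2 fold change of Col4a2 was 1.69 ± 0.20 in QKO and 2.27 ± 0.20 in TKO (adjusted p = 0.00138 and 0.000581, edgeR), and without PclWT replicate 1 it was 1.47 ± 0.09 and 2.09 ± 0.09. That of Col4a1 was 1.37 ± 0.25 and 1.73 ± 0.25, or 1.11 ± 0.06 and 1.50 ± 0.07 without that library.

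The laminin chains were less uniform in EpiLCs of these lines. Lama1 was at 32.8, 37.4 and 37.4 CPM in TKO against 3.5, 11.1 and 9.61 CPM in PclWT, and rose by 2.11 ± 0.35 (adjusted p = 0.00499), or by 1.77 ± 0.11 without PclWT replicate 1. In QKO it was at 20.5, 15.9 and 17.1 CPM, a log2 fold change of 1.13 ± 0.36 (adjusted p = 0.0511), and 0.76 ± 0.13 without that library (adjusted p = 2.51e-05). It passed at over 2-fold with no filter (adjusted p = 0.00668), with DESeq2 (0.0151), in 1 fit of all 36 libraries (4.66e-06) and without PclWT replicate 2 (1.42, adjusted p = 0.0439). Lamb1 was higher in TKO, by 1.06 ± 0.19 (adjusted p = 0.00707) and by 0.88 ± 0.04 without PclWT replicate 1, which is under 2-fold. In QKO Lamb1 overlapped PclWT (0.18 ± 0.20, adjusted p = 0.524), and the sign turned without that library (-0.04 ± 0.05). Lamc1 was at 693, 689 and 677 CPM in QKO and 527, 519 and 521 CPM in TKO, against 119.8, 303 and 319.8 CPM in PclWT. All mutant libraries were higher, and the log2 fold change was 1.46 ± 0.34 in QKO (adjusted p = 0.0172) and 1.04 ± 0.34 in TKO (adjusted p = 0.051), or 1.11 ± 0.05 and 0.73 ± 0.04 without PclWT replicate 1, both then passing. In TKO Lamc1 passed at over 2-fold with RLE size factors (adjusted p = 0.0477), no filter (0.00389), DESeq2 (0.00838), 1 fit of all 36 libraries (2.35e-06), a replicate block (0.0431) or without PclWT replicate 3 (0.044). With any QKO EpiLC library left out, the adjusted p of Lamc1 in QKO was 0.0586 to 0.0633.

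Nid1 was higher in QKO EpiLCs, at 74.2, 81.6 and 72.7 CPM against 18.7, 40.7 and 41.9 CPM in PclWT, by 1.16 ± 0.29 (adjusted p = 0.021) and by 0.85 ± 0.07 without PclWT replicate 1. With any QKO EpiLC library left out its adjusted p was 0.0648 to 0.0785. Nid2 was higher in QKO by 0.89 ± 0.28 (adjusted p = 0.0459) and by 0.59 ± 0.05 without PclWT replicate 1, and its adjusted p was 0.0582 to 0.131 without PclWT replicate 2 or any QKO EpiLC library. In TKO, Nid2 was at 0.24 ± 0.27, or -0.02 ± 0.04 without PclWT replicate 1, and Nid1 at 0.56 ± 0.28 (adjusted p = 0.169), or 0.28 ± 0.07 (adjusted p = 0.000924). Sparc did not pass in either mutant, with 0.10 ± 0.10 in QKO and -0.09 ± 0.10 in TKO, and Hspg2 did not pass with all libraries but was at 0.30 ± 0.06 and 0.18 ± 0.06 without PclWT replicate 1, both passing. Dag1 was at -0.06 ± 0.24 in QKO and -0.04 ± 0.24 in TKO, and fell by 0.32 ± 0.05 and 0.27 ± 0.04 without that library. In QKO EpiLCs 4 genes were called higher (Lamc1, Col4a1, Col4a2 and Nid1) and none lower, where 6.51% and 7.22% of genes tested were. The count was 2 with any QKO EpiLC library left out. In TKO EpiLCs 4 were called higher (Lama1, Lamb1, Col4a1 and Col4a2) and none lower, where 6.88% and 7.18% were, and 3 were called without PclWT replicate 1, as in QKO. Over all the alternatives the count was 3 to 5 in TKO and 2 to 5 in QKO. The median log2 fold change of the 10 genes was 1.01 in QKO and 0.80 in TKO EpiLCs, beside 0.00 and -0.03 over all genes tested. Both medians of the set use PclWT replicate 1, in which most of the set was low, and are not given without it. Naive pluripotency genes, which fall between ESCs and EpiLCs as most of the set does, were higher in these mutants too. The 8 listed genes summed to 1259 to 1370 CPM in QKO EpiLCs and 565 to 627 CPM in TKO EpiLCs, against 374 to 467 CPM in PclWT EpiLCs. Of them 6 were called higher in QKO and 4 in TKO (5 without PclWT replicate 1), and 1 was called lower in each. The 7 formative genes summed to 2836 to 3219 CPM in QKO EpiLCs and 2219 to 2371 CPM in TKO EpiLCs. In PclWT EpiLCs they summed to 1042 to 1213 CPM. Without PclWT replicate 1, 3 of 7 tested were called higher in TKO and none lower, against 7.19% and 5.76% of all genes. In QKO 2 of 6 tested were called higher and 1 lower, against 6.79% and 6.73%. The sum of the 8 naive genes was also higher in J2KO EpiLCs, at 439 to 449 CPM against 272 to 287 CPM in J2WT EpiLCs. There Lama1, Lamc1, Col4a1, Col4a2 and Hspg2 were lower, and Lamb1, Nid1, Nid2 and Sparc were higher. The part of either list in the levels of the set was not tested.

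Whether these effects differed between stages was tested directly. For TKO, the effect in EpiLCs minus that in ESCs was 2.91 ± 0.23 for Col4a2 (adjusted p = 1.42e-05, edgeR), 2.49 ± 0.27 for Col4a1 and 1.66 ± 0.22 for Lamb1. For QKO it was 1.42 ± 0.21 for Col4a2, 1.28 ± 0.26 for Col4a1 and 1.50 ± 0.21 for Lamb1. Without PclWT EpiLC replicate 1 these were 2.73, 2.27 and 1.48 in TKO, and 1.17, 0.99 and 1.25 in QKO. In both tests, which share the PclWT libraries, these 3 genes were the ones called, or 2 of them for QKO without that library, while 7.48% of genes tested were called for TKO and 7.31% for QKO. No difference of the other 7 genes exceeded 2-fold with an adjusted p under 0.05.

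QKO and TKO differ by loss of JARID2, and were compared with each other directly. In EpiLCs Lama1 fell to 20.5, 15.9 and 17.1 CPM in QKO, against 32.8, 37.4 and 37.4 CPM in TKO. Lamb1 fell to 131, 124 and 128 CPM in QKO, against 243, 230.2 and 241 CPM in TKO. Neither overlapped, at log2 fold changes of -1.01 ± 0.09 and -0.92 ± 0.05 (adjusted p = 4.59e-09 and 6.03e-13, edgeR). Lama1 was the 1 gene called lower, where 3.3% of genes tested were, and none was called higher (1.52%). It stood at the limit of 2-fold and was not called without TKO replicate 2 or 3 or QKO replicate 2 or 3, at -0.95 to -0.99. Col4a1 (-0.40 ± 0.05) and Col4a2 (-0.63 ± 0.06) were lower too, while Nid1 (0.56 ± 0.06), Nid2 (0.60 ± 0.04), Lamc1 (0.37 ± 0.04) and Sparc (0.15 ± 0.05) were higher. The Sparc change did not pass without TKO replicate 1 or 2 or QKO replicate 1 (adjusted p = 0.0519 to 0.0951).

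In ESCs the collagen IV genes went the opposite way. Col4a1 was at 121, 116 and 124 CPM in QKO against 65.9, 68.2 and 64.8 CPM in TKO, and Col4a2 at 53.2, 54.8 and 54.1 CPM in QKO against 26.2, 29.4 and 30.4 CPM in TKO. All QKO libraries were higher, by 0.85 ± 0.05 and 0.91 ± 0.07, just under 2-fold. Lamb1 (-0.71 ± 0.06) and Lama1 (-0.40 ± 0.06) were lower. No gene of the set was called in either direction by edgeR, where 1.37% of genes tested were called higher and 3.21% lower, although 7 of the 10 passed an adjusted p of 0.05. Of these, Lamc1, Nid1 and Hspg2 did not pass without QKO ESC replicate 1 (adjusted p = 0.0637, 0.0781 and 0.199) or replicate 3 (0.0536, 0.0645 and 0.154), nor Hspg2 without TKO ESC replicate 1 (0.0756).

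Loss of JARID2 could thus be read in cells with and without PCL1-3, and the difference was tested as the change of QKO over TKO minus that of J2KO over J2WT. In ESCs it was -2.34 ± 0.11 for Lamb1 (adjusted p = 1.5e-15, edgeR), which was lower in QKO and higher in J2KO. In EpiLCs it was -1.43 ± 0.06 for Lamb1 (adjusted p = 5.83e-18), again with opposite directions. It was 1.07 ± 0.17 for Lama1 in EpiLCs (adjusted p = 3.65e-06), which was lower in both mutants and further in J2KO. This Lama1 difference was 0.98 to 1.25 when 1 library at a time was left out. Of all genes tested, 16.8% were called in ESCs and 11.6% in EpiLCs, and the lines of this test belong to different sets.

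In Pcgf2/4 KO EpiLCs Lamb1 was the gene that changed most. It was at 60, 66.0 and 65.7 CPM in Pcgf2/4 KO against 170.5, 172 and 165 CPM in WT, with no overlap, at a log2 fold change of -1.38 ± 0.05 (adjusted p = 2.98e-26, edgeR). It was the 1 gene of the set called lower, where 3.84% of genes tested were, and none was called higher (1.96%). Lama1 was at 8.23, 7.95 and 7.21 CPM in Pcgf2/4 KO against 3.98, 4.40 and 3.58 CPM in WT, which is 0.99 ± 0.16 and so at the limit of the call. Without WT replicate 2 or Pcgf2/4 KO replicate 3 it passed that limit, and 2 genes were then called. Col4a1 was at 35.5, 37.0 and 32.5 CPM in Pcgf2/4 KO against 20.1, 19.7 and 20.1 CPM in WT (0.83 ± 0.08), and Col4a2 (0.77 ± 0.12), Nid1 (0.81 ± 0.08) and Nid2 (0.53 ± 0.04) rose as well. Sparc (-0.32 ± 0.05), Hspg2 (-0.42 ± 0.04) and Dag1 (-0.37 ± 0.04) fell, and Lamc1 was at -0.08 ± 0.04 (adjusted p = 0.059). Of the 8 naive pluripotency genes 7 were called higher in Pcgf2/4 KO, with a sum of 624 to 694 CPM against 310.2 to 319.9 CPM in WT.

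The balance of chains was then compared per length, as shares of summed RPKM. Of the 5 alpha chain genes, Lama1 made up 0.979% in J2KO EpiLCs against 43.5% in J2KO ESCs, and 3.99% in J2WT EpiLCs against 31.4% in J2WT ESCs. In the Pcl family it was 6.21% in QKO EpiLCs against 19.4% in QKO ESCs, 8.71% in TKO EpiLCs against 22.7% in TKO ESCs and 2.26% in PclWT EpiLCs against 12.3% in PclWT ESCs. Lama5 was the main alpha chain in every group, at 55.6% to 96.2%. Of the beta chains, Lamb1 made up 84.2% in J2KO EpiLCs against 15.4% in J2KO ESCs and 73.8% in J2WT EpiLCs against 3.72% in J2WT ESCs, but 65.2% (66.3% without replicate 1) in PclWT EpiLCs against 63.8% in PclWT ESCs. Lamc1 was 88.0% to 99.1% of gamma chains in all 12 groups. The summed gamma chains exceeded the summed beta chains by 1.74 to 10.4 times, with the lowest ratio in PclWT EpiLCs (1.99 without replicate 1) and the highest in QKO ESCs.

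**Figure D4:**
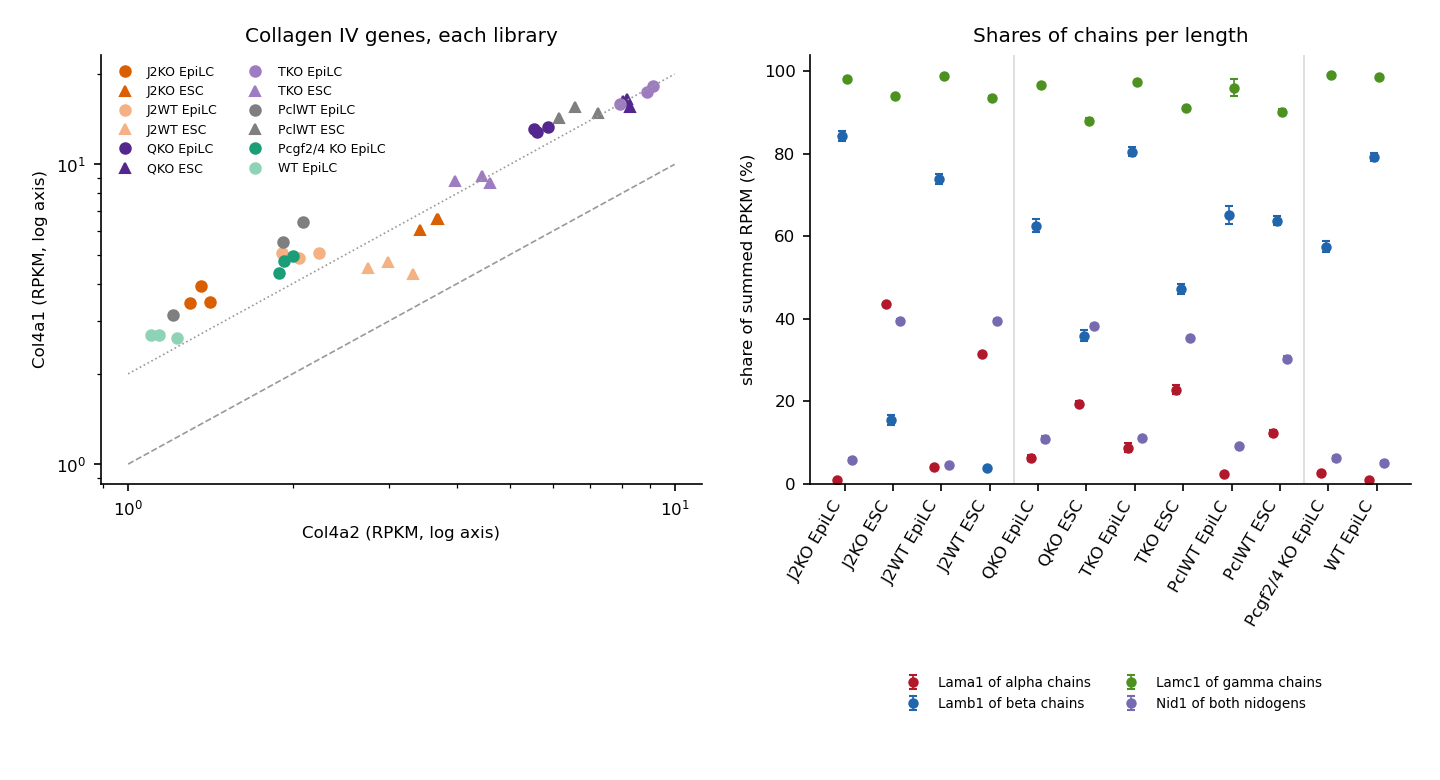
Left, Col4a1 against Col4a2 in RPKM on log axes, 1 point per library, where the dashed line marks equal levels and the dotted line a ratio of 2. Right, the share of Lama1 among alpha chains, Lamb1 among beta chains, Lamc1 among gamma chains and Nid1 among nidogens as percent of summed RPKM, mean and SD of 3 libraries, where Lamb1 runs from 3.72% in J2WT ESCs to 84.2% in J2KO EpiLCs.

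The ratio of the collagen IV genes varied less between groups than their levels did. Col4a1 over Col4a2 in RPKM was 1.51 ± 0.18 in J2WT ESCs, the lowest, and 2.85 ± 0.24 in PclWT EpiLCs, the highest, or 2.97 without PclWT EpiLC replicate 1 (SD, n = 3 each). It was 2.68 ± 0.22 in J2KO EpiLCs against 1.78 ± 0.02 in J2KO ESCs, 2.43 ± 0.20 in J2WT EpiLCs against 1.51 ± 0.18 in J2WT ESCs and 2.31 ± 0.05 in QKO EpiLCs against 1.97 ± 0.09 in QKO ESCs. In PclWT ESCs it was 2.24 ± 0.17, below the PclWT EpiLC value. In TKO it was 1.98 ± 0.02 in EpiLCs against 2.06 ± 0.17 in ESCs, which overlap. Of the nidogens, Nid1 made up 4.55% to 11.1% in EpiLC groups and 30.3% to 39.5% in ESC groups.

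Across the 12 group means of log2 CPM, Col4a1 and Col4a2 had a Pearson correlation of 0.970, and Lama1 had 0.926 with Nid1, 0.921 with Hspg2 and 0.857 with Lamc1. Lamb1 ran against Lama1 over the 12 groups, at -0.611. Over the 7 EpiLC groups alone, Col4a1 and Col4a2 had 0.993, and Lama1 had 0.922 with Col4a1 but 0.416 with Nid1. Lamb1 did not run against Lama1 there, at 0.260. These describe 12 and 7 means that share lines, sets and the stage, and carry no test. Genes outside the set whose mean profile was among the most like the average of the laminin chains, of 13365 genes, included Col4a3bp (0.944), Mpzl2 (0.938), Rabif (0.931) and Erf (0.927). Of those named, Erf alone stayed among the 5 most alike without PclWT EpiLC replicate 1. Lama1 (0.796), Lamc1 (0.854) and Lamb1 (-0.08) make up that average, so their correlations with it set a part against the whole. The genes most like the collagen IV average were Sntb2 (0.919), Kpna1 (0.908), Ube2w (0.902), Cgas (0.887) and Traf3ip1 (0.880). Of these, Sntb2, Ube2w and Cgas stayed without that library. The correlations between members above were 0.966 for Col4a1 with Col4a2 and 0.924, 0.915 and 0.868 for Lama1 with Nid1, Hspg2 and Lamc1 without it.

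Genes that work with the set were counted from lists. Among the other laminin chains, Lamb2, the other main beta chain, was at 22.4 ± 1.30 CPM in J2WT EpiLCs against 114 ± 2.02 CPM in J2WT ESCs (log2 fold change -2.34 ± 0.05, edgeR). Lama3 was called higher in EpiLCs of both J2 lines, at 19.9 CPM against 4.66 CPM in J2WT. Col4a3 to Col4a6, the other collagen IV chains, were at or under 1.45 CPM in every library and none was tested. Of 12 other basement membrane proteins, 8 were tested in J2WT, and 2 were called higher and 3 lower in EpiLCs, where 15.2% and 15% of all genes tested were. Tinagl1, a basement membrane-associated protein, was lower in EpiLCs of all 5 lines, at 0.595 CPM in J2WT EpiLCs against 59.9 CPM in J2WT ESCs (-6.61 ± 0.13), and Col18a1, the collagen that holds endostatin, was at 864 CPM in J2KO EpiLCs against 204 CPM in J2KO ESCs (2.09 ± 0.03).

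Of 12 matrix receptors other than dystroglycan, 11 were tested in J2WT, and 3 were called higher and 4 lower in EpiLCs, against 15.2% and 15% of all genes tested. In TKO 10 were tested, and 4 were called higher and 2 lower in EpiLCs, against 13.8% and 8.74%. Itga3, the alpha 3 integrin that binds laminin, was called higher in EpiLCs of J2WT, J2KO, TKO and QKO, at 222 CPM in J2KO EpiLCs against 36 CPM in J2KO ESCs (2.63 ± 0.04). Ddr2, a collagen receptor, was called lower in EpiLCs of all 5 lines, at 1.24 CPM in TKO EpiLCs against 16.2 CPM in TKO ESCs (-3.62 ± 0.18). Bcam, a laminin alpha 5 receptor, was at 49.2 CPM in PclWT EpiLCs against 194 CPM in PclWT ESCs (-2.00 ± 0.12, or -2.08 ± 0.06 without EpiLC replicate 1). Of the 11 matched genes that glycosylate dystroglycan, 10 were tested and at most 1 was called in any comparison. Among these was Pomgnt2, higher in EpiLCs of the Pcl lines (1.61 ± 0.16 in QKO).

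Of 10 genes for folding and cross-linking of collagen, Pxdn, the peroxidase that forms the sulfilimine bond of collagen IV, was called higher in EpiLCs of all 5 lines, at 41.9 ± 1.78 CPM in J2WT EpiLCs against 2.32 ± 0.12 CPM in J2WT ESCs (4.18 ± 0.09). The collagen chaperone Serpinh1 was at 179 CPM in QKO EpiLCs against 56.5 CPM in QKO ESCs (1.65 ± 0.05). None of the 10 was called in TKO against PclWT in EpiLCs, where 6.88% of all genes tested were called higher and 7.18% lower. Of 9 proteases and inhibitors, the protease gene Htra1 was lower in EpiLCs of all 5 lines, at 8.31 CPM in TKO EpiLCs against 180.4 CPM in TKO ESCs (-4.40 ± 0.07). Mmp9, a collagen IV-cleaving gelatinase, was higher in EpiLCs of all 5, at 8.24 CPM in QKO EpiLCs against 0.637 CPM in QKO ESCs (3.71 ± 0.28).

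Markers of primitive endoderm, a cell type known for making these proteins, moved in the direction of the collagen IV genes in some comparisons and not in others. Of 10 listed factors, 8 were tested in TKO against PclWT EpiLCs and all 8 were called higher, with and without PclWT replicate 1, where 6.88% of all genes tested were. Their summed level was 119 to 132 CPM in TKO EpiLCs and 53.5 to 58.3 CPM in QKO EpiLCs, against 17.4 to 23.2 CPM in PclWT EpiLCs. Gata6, which specifies primitive endoderm, was at 25.8 ± 4.58 CPM in TKO EpiLCs against 0.587 ± 0.38 CPM in PclWT EpiLCs (5.38 ± 0.34, adjusted p = 0.000228, edgeR, or 5.22 ± 0.27 without PclWT replicate 1). In QKO EpiLCs 4 of 5 factors tested were called higher than in PclWT, where 6.51% of all genes tested were. In QKO against TKO EpiLCs 5 of 8 were called lower, where 3.3% of all genes were, or 4 of 8 without QKO replicate 2. In ESCs the sum was 25.7 to 29.4 CPM in QKO and 17.1 to 18.7 CPM in TKO, against 21.9 to 26.6 CPM in PclWT.

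The same list was at 35.5 to 35.9 CPM in Pcgf2/4 KO EpiLCs against 12.3 to 15 CPM in WT EpiLCs, where Col4a1 and Col4a2 were higher, and at 9.25 to 10.7 CPM in J2KO EpiLCs against 26.5 to 28.9 CPM in J2WT EpiLCs, where they were lower. In other comparisons the list and the collagen IV genes parted. Its sum was 53.5 to 58.3 CPM in QKO EpiLCs against 25.7 to 29.4 CPM in QKO ESCs, while both collagen IV genes were lower. In J2WT it was 26.5 to 28.9 CPM in EpiLCs against 14.3 to 15.7 CPM in ESCs, while Col4a2 was lower and Col4a1 under 2-fold higher. In J2KO ESCs it was 11.9 to 13.4 CPM against 14.3 to 15.7 CPM in J2WT ESCs, while both were higher. No factor was at 0 in all libraries of any of the 12 groups, but many were near the floor. In PclWT, J2KO and WT EpiLCs 7 of the 10 averaged under 1 CPM, and 6 of the 10 did in J2WT, J2KO and PclWT ESCs. Of 10 parietal and visceral endoderm products, 2 were called higher in TKO than in PclWT EpiLCs, where 6.88% of all genes tested were. Without PclWT replicate 1, 2 of 6 tested were called higher and none lower, against 7.19% and 5.76%. The list summed to 50.9 to 57.4 CPM in TKO EpiLCs, against 16.6 to 21 CPM in PclWT EpiLCs. The sum was 14.6 to 15.2 CPM in QKO EpiLCs. In TKO EpiLCs Stra6 was at 4.28 CPM and Srgn at 4.11 CPM. The 4 products under 1 CPM there were Ttr and Apoa1, at 0 in all 3 libraries, and Afp and Thbd, at 0.412 CPM or less. Sparc, itself abundant in parietal endoderm, did not differ past the test in QKO or TKO EpiLCs. A fibroblast list summed to 23.1 to 25.9 CPM in TKO EpiLCs and 24.9 to 26.0 CPM in QKO EpiLCs, against 21.9 to 36.6 CPM in PclWT EpiLCs. The part of endoderm cells in the collagen IV values was not tested.

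**Figure D5:**
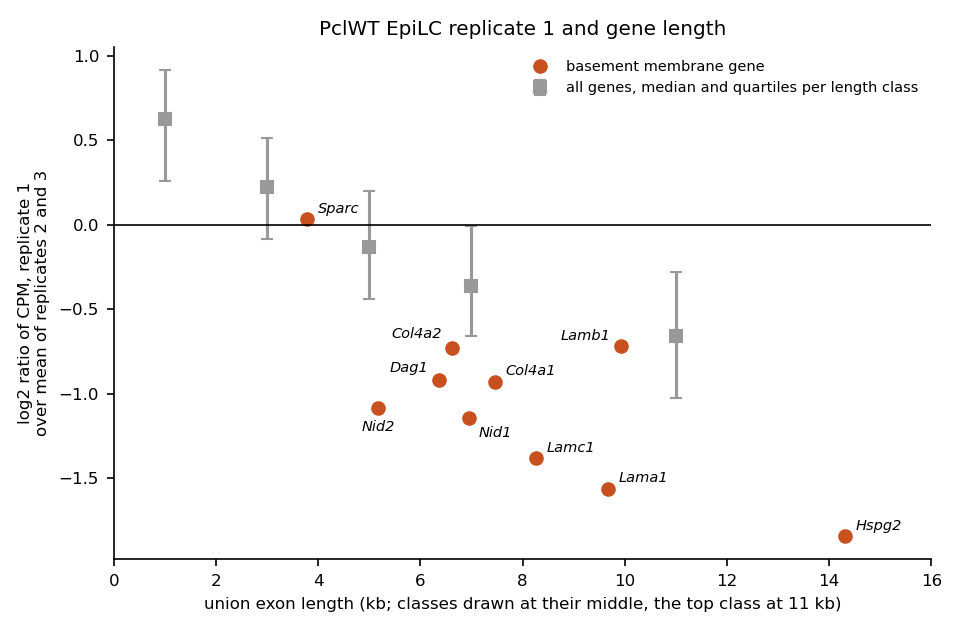
Log2 ratio of the CPM in PclWT EpiLC replicate 1 to the mean of replicates 2 and 3, against exon length in kb, for the 10 genes (circles) and for all genes by length class (squares at the median, bars at the quartiles). Hspg2, the longest gene, was at 0.279 times the other replicates, and Sparc, the shortest, at 1.02 times.

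The offset of PclWT EpiLC replicate 1 followed transcript length. Over all genes, the median ratio of this library to the mean of the other replicates was 1.54 for exon lengths up to 2000 bp (2008 genes), 1.17 from 2000 to 4000 bp, 0.913 from 4000 to 6000 bp, 0.778 from 6000 to 8000 bp and 0.632 above that (2341 genes). In PclWT ESC replicate 1 the same classes ran from 1.05 to 0.914, and in replicate 1 of TKO, QKO and J2WT EpiLCs the medians lay between 0.980 and 1.02. Sparc has the shortest exon sequence of the set, at 3788 bp, and its 1.02 times lay beside a class median of 1.17. Hspg2 (0.279), Lama1 (0.339) and Lamc1 (0.384) lay well under the median of the class above 8000 bp, and Lamb1 (0.609) close to it. Nid2 (0.472) lay under the 0.913 of its class, and Nid1 (0.453), Col4a1 (0.526), Dag1 (0.528) and Col4a2 (0.602) under the 0.778 of theirs. Every gene of the set was thus under the median of its length class. The part of RNA quality or library preparation in this offset was not tested.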

How the data were processed

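Poly(A) RNA libraries were made by the authors with NEBNext kits, which do not mark strand, and aligned with STAR to the mouse genome. What the authors deposited is 1 table per library of raw, unscaled read counts by gene, of which the unstranded column was used. Rows that name no gene held 23.2% to 30.2% of reads and were left out. Genes were named and measured from GENCODE M21 (GRCm38). Each comparison was fitted on its own libraries with edgeR 4.0.16 in R 4.3.3 (TMM, quasi-likelihood test, Benjamini-Hochberg adjustment over all genes tested), keeping genes whose normalized count averaged 15 or more. A gene passed at an adjusted p under 0.05 and was called when its log2 fold change also exceeded 1. SE is the log2 fold change over the root of F. The script was tested on simulated data.

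The 10 genes and all lists were chosen with earlier results of these data known. All 10 were described in every comparison. From each other list the text gives counts and names at most 4 called genes, those with the largest change, and genes from the 5 most like each pattern. Some items of these lists are not reported here. Same-numbered libraries deviated together (correlations of 0.205 to 0.451) only in PclWT EpiLCs and ESCs, by a check of the data and not from the labels. Even so, not every PclWT library correlated best with its own number. The blocked value is given there for Lamb1 and Nid2 only, which the block moved past the limit of the test or of the call. The other genes of the set carry the unblocked value, and the block did not change whether they passed or were called. Depths are counting precision only. Alternatives were RLE size factors, no filter, a filter of 50, DESeq2 1.42.0, 1 fit of all 36 libraries, a replicate block and leaving out each library. List counts, levels and ratios without PclWT EpiLC replicate 1 or QKO EpiLC replicate 2 were added after seeing the data. Promoter sequences are RefSeq's (GRCm38.p6).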

Additional observations from a re-analysis of the deposited data

Results flagged for a closer look

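Several effects differed between lines or stages by a test of the difference itself (edgeR interaction term, adjusted p under 0.05 and over 2-fold). Groups of 3 libraries were not tested for single distant libraries.

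The stage change of PclWT minus that of J2WT was 1.08 for Lama1, -4.38 for Lamb1, -1.73 for Col4a1, -1.41 for Col4a2 and 1.67 for Nid1 on the log2 scale. Set, line and depth cannot be told apart there.

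The effect of JARID2 loss in EpiLCs minus that in ESCs was -2.52 for Lama1 and -1.15 for Lamb1. The effect of PCL1-3 loss (TKO) in EpiLCs minus that in ESCs was 1.66 for Lamb1, 2.49 for Col4a1 and 2.91 for Col4a2. For QKO it was 1.50 for Lamb1, 1.28 for Col4a1 and 1.42 for Col4a2. Both rest on the same PclWT libraries.

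The change of QKO over TKO minus that of J2KO over J2WT was -2.34 for Lamb1 in ESCs. In EpiLCs it was 1.07 for Lama1 and -1.43 for Lamb1.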

How the results depend on the processing

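Of 1968 recomputed changes of the 10 genes, 1836 kept their direction and side of the threshold, 83 no longer passed, 28 newly passed and 21 changed sign, none of the last having passed. Without a filter the count of all genes called was 6836 for the stage change in J2WT (4192 with it), 6334 in J2KO (3788), 4703 in TKO (2862) and 4063 in QKO (2389). In ESCs it was 3109 for J2KO (1793), 2971 for TKO (1710), 2973 for QKO (1700) and 1042 for QKO against TKO (558), and in EpiLCs 2221 for J2KO (1220), 1085 for QKO against TKO (615) and 1446 for Pcgf2/4 KO (740). With a minimum of 50 it was 1230 for the stage change in PclWT (1944) and 1526 in QKO, 1083, 1054, 1070 and 278 for J2KO, TKO, QKO and QKO against TKO in ESCs, and 700, 1157, 1153, 307 and 367 for J2KO, TKO, QKO, QKO against TKO and Pcgf2/4 KO in EpiLCs. For the differences of effects it was 971 (J2KO between stages), 1444 and 945 (JARID2 loss in ESCs and EpiLCs).

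Nid2 in QKO against TKO ESCs (-0.01) was 0.00101 with RLE size factors and 0.00129 with DESeq2, and Dag1 in J2KO EpiLCs (0.02) was -0.00495 in 1 fit of all 36 libraries. With 1 library left out at a time, Dag1 ranged from -0.30 to 0.13 for the stage change in PclWT, -0.0077 to 0.0246 in J2KO EpiLCs, -0.27 to 0.13 in TKO EpiLCs and -0.32 to 0.10 in QKO EpiLCs. Nid2 ranged from -0.088 to 0.0503 in TKO ESCs, -0.0649 to 0.0766 in QKO ESCs, -0.0398 to 0.0273 in QKO against TKO ESCs and -0.0193 to 0.43 in TKO EpiLCs. Hspg2 in QKO ESCs ranged from -0.24 to 0.0109, Sparc in QKO against TKO ESCs from -0.0633 to 0.0129 and Lamb1 in QKO EpiLCs from -0.0355 to 0.30. The members called were 2 to 5 in QKO EpiLCs, 0 to 1 in QKO against TKO EpiLCs, 1 to 2 in Pcgf2/4 KO and 1 to 2 for JARID2 loss in EpiLCs. The cause of these moves was not tested, save that fewer or more genes are tested under another filter.

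With the replicate number as a block, Dag1 in TKO against PclWT EpiLCs was 0.0134, Lamc1 passed there (1.16, adjusted p = 0.0431) and in Pcgf2/4 KO (-0.08, adjusted p = 0.0499), and Col4a1 in QKO ESCs did not (adjusted p = 0.0659). Besides these, and Lamb1 and Nid2 in the stage change of PclWT, the block changed no call of the 10 genes. Outside the stage change of PclWT the libraries share only a number, although every library correlated best with its own number in the stage change of J2KO, in TKO ESCs and in J2KO EpiLCs. In the stage change of PclWT not every library did. DESeq2 gave adjusted p = 0.109 for Hspg2 in TKO ESCs. In 1 fit of all 36 libraries 15 of 156 changes no longer passed. Levels without TMM factors were 0.937 to 1.13 times those given. Low counts of Lama1 in EpiLCs limit its precision there.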
